A study of Mus musculus with 10 samples.

Results

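The genes described here are 9 transcription factors that direct blood progenitors into the granulocyte and monocyte lineages: Cebpa, Cebpb, Cebpd and Cebpe of the C/EBP family, Spi1 (which encodes PU.1), Gfi1, Irf8, Klf4 and Runx1. They were taken by symbol from a count table of 52550 genes and followed over all 10 RNA-sequencing libraries of MLL-AF9 clones, and a gene with fewer than 10 reads in total was treated as not measured. This left 7 of the 9 factors. With doxycycline (DOX), which switches miR-139 on, the PU.1 gene and 3 of the 4 C/EBP genes had higher read counts in MLL-AF9-i139 clones 1 and 2, treated for 48 h. Their differences in clone 3, treated for 72 h, were small or negative. Runx1 was also higher in clones 1 and 2, and by less in clone 3. Cebpa and Gfi1 did not share this pattern. Over the 3 clones together no factor passed the test, where 0.0624% of all genes did. With the clone as a block Spi1 and Cebpe passed it, as did 12.4% of all genes.

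All cells came from hematopoietic stem and progenitor cells (HSPCs) enriched from the bone marrow of wild-type C57BL/6 mice aged 8 to 20 weeks, transformed with a retrovirus that expresses the fusion oncogene MLL-AF9, and kept in medium with stem cell factor, GM-CSF and the interleukins IL-3 and IL-6, so both the controls and the treated cells carry the fusion. MLL-AF9-i139 cells also carry the repressor tetR-KRAB and a lentiviral construct from which DOX induces miR-139, and MLL-AF9-ieGFP cells a construct from which it induces eGFP. The labels give the MLL-AF9-ieGFP libraries the same protocol, which speaks of tetR-KRAB and picked colonies for MLL-AF9-i139 alone. The libraries form 4 groups: 3 MLL-AF9-i139 clones without and with DOX (5 µg/mL; 48 h for clones 1 and 2, 72 h for clone 3), and 1 MLL-AF9-ieGFP clone without and with DOX, at 48 h and at 72 h each. The 2 libraries of an MLL-AF9-ieGFP group are cultures of the same clone, and the labels give no time for the untreated MLL-AF9-i139 cultures. In MLL-AF9-i139, the duration of DOX and the clone therefore cannot be told apart.

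C/EBP proteins and PU.1 are DNA-binding proteins that act together on myeloid genes. C/EBPα takes part in the first steps from progenitor to granulocyte, C/EBPε in the late steps in which secondary granules form, and C/EBPβ and C/EBPδ in growth factor and cytokine responses. PU.1 is needed for both granulocytes and monocytes, GFI1 is a repressor that favors granulocytes, IRF8 and KLF4 favor monocytes, and RUNX1 acts upstream, on the formation of blood stem cells and on Spi1 itself.

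Since the treatment is the release of a microRNA, its mature sequences are shown first, as RefSeq gives them on GRCm38, with the seed (positions 2 to 8 from the 5′ end), which pairs with target mRNAs, in capitals.
miR-139-5p: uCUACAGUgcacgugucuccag
miR-139-3p: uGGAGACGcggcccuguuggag
Both arms lie on the plus strand, at chr7:101475382-101475403 and chr7:101475418-101475439. The longest annotated 3′ UTR of each of the 9 factors was searched for matches. None held ACTGTAG or CGTCTCC, the complements of positions 2 to 8 of the 5p and the 3p arm. Of 21123 mouse 3′ UTRs, 11.46% held the former and 3.598% the latter. Nor did any of the 9 hold CTGTAGA (positions 2 to 7 of the 5p arm followed by A), which was in 14.16% of 3′ UTRs. The single match of 7 bases was to positions 2 to 7 of the 3p arm followed by A (GTCTCCA, in 13.45% of 3′ UTRs). It lies in Runx1, at bases 1952 to 1958 of a 3′ UTR of 4189 bases, and is shown with its surroundings (GRCm38, chr16:92603686-92603714, minus strand, match in capitals).
Runx1 3′ UTR: tcctccatccgGTCTCCActcagttattc
A match of letters is a description and not a site of action.

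The libraries held between 35133308 and 47089725 reads assigned to genes. Values are given as CPM, which correct each read count for the depth of its library, with TMM normalization factors. The progenitor markers Kit, Ptprc and Fcgr3 were abundant, and the 5 myeloid progenitor markers together summed to 422 to 439 CPM in untreated MLL-AF9-i139 cells and to 455 to 780 CPM with DOX. Itgam and Cd34, also among the 5, were nearly absent, with 6 and 37 reads over the 10 libraries. The body of Itgam lies to 99.9% inside other genes, so, as described below for Irf8, its count may not measure its RNA. Fcgr3 alone was at 311.6 and 268.9 CPM in DOX-treated clones 1 and 2, against 99.2 CPM in clone 3. The erythroid markers Hbb-bs and Car1, the B cell marker Ms4a1 and the mast cell and basophil markers Fcer1a and Prss34 were listed at 0 in all 10 libraries, but other markers of these cells were present at low levels. The 6 erythroid markers, of which Klf1 and Epor had at least 10 reads in total (820 and 125), summed to 2.30 to 2.69 CPM without and 1.69 to 2.29 CPM with DOX in MLL-AF9-i139. The 4 B cell markers, mostly Cd79a, summed to 0.935 to 1.12 CPM without and 0.737 to 1.17 CPM with DOX. The 4 megakaryocyte markers summed to 1.41 to 2.34 CPM without and 1.96 to 3.00 CPM with DOX. One of them, the platelet glycoprotein gene Gp9, was at 0.205, 0.0456 and 0.0507 CPM in untreated and 0.627, 0.814 and 0.635 CPM in DOX-treated clones 1, 2 and 3 (edgeR with the clone as a block, adjusted p = 0.0278). The 5 mast cell and basophil markers together summed to 9.94 to 12.1 CPM without DOX and to 14.9 to 16.6 CPM with it, most of it Mcpt8. Ms4a2 of this list went the other way, from 2.03, 1.30 and 1.67 CPM to 1.23, 0.865 and 0.813 CPM in clones 1, 2 and 3. Cpa3 had 26 reads over the 10 libraries. The 5 T cell markers summed to 0.296 to 0.369 CPM without and 0.483 to 0.689 CPM with DOX. The part of these markers in the results was not tested, and in bulk RNA, fewer cells of a type and less RNA per cell cannot be told apart. The gene of miR-139 itself was listed at 0 in every library, so these counts do not check its induction.

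Irf8 (ENSMUSG00000041515) and Klf4 (ENSMUSG00000003032) were not measured. Irf8 had 0 reads in all 10 libraries, where 3 reads would be 0.0637 to 0.0854 CPM before normalization. Its body (GRCm38, chr8:120736358-120756694, plus strand) lies wholly inside a much longer gene model on the same strand, Gm20388 (chr8:119910841-124345722), which held 3210 to 4247 reads per library, although the exons of Irf8 share 0% of their bases with those of other genes. This was general in the table. Of 1213 protein-coding genes that lie wholly inside another gene on either strand, 99.2% had fewer than 10 reads in total, against 28.9% of the other 20606. The count of 0 is therefore no measurement of Irf8 RNA. Klf4 (chr4:55527143-55532466, minus strand) overlaps no other gene, and it had 3 reads over the 10 libraries, with at most 1 in a library.

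Among the measured factors, levels between genes were compared per kilobase of exon in the 5 untreated libraries, which come from 4 clones. Cebpe and Gfi1 were highest, at 81.8 ± 8.79 and 81.4 ± 9.68 CPM per exonic kilobase (SD, n = 5 libraries each), and their ranges overlapped. Cebpb followed with 43.2 ± 6.25, Spi1 with 33.6 ± 2.93, Runx1 with 30.7 ± 5.15 and Cebpa with 25.2 ± 2.95 CPM per exonic kilobase, and Cebpd was lowest with 9.60 ± 1.44. Only the steps from Gfi1 to Cebpb and from Cebpa to Cebpd were without overlap between libraries, and each of the other neighbors in this order overlapped. The order depends on the length used, and which length matches the counting is not given in the sources used here. As described above for Irf8, genes inside other genes had few reads even where their exons were not shared. The bodies of Cebpb and Cebpd lie to 60.4% and 48.3% inside genes of the opposite strand, Tmem189 and Spidr, and per kilobase of gene body outside other genes Cebpb was highest in the untreated MLL-AF9-i139 libraries.

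**Figure D1:**
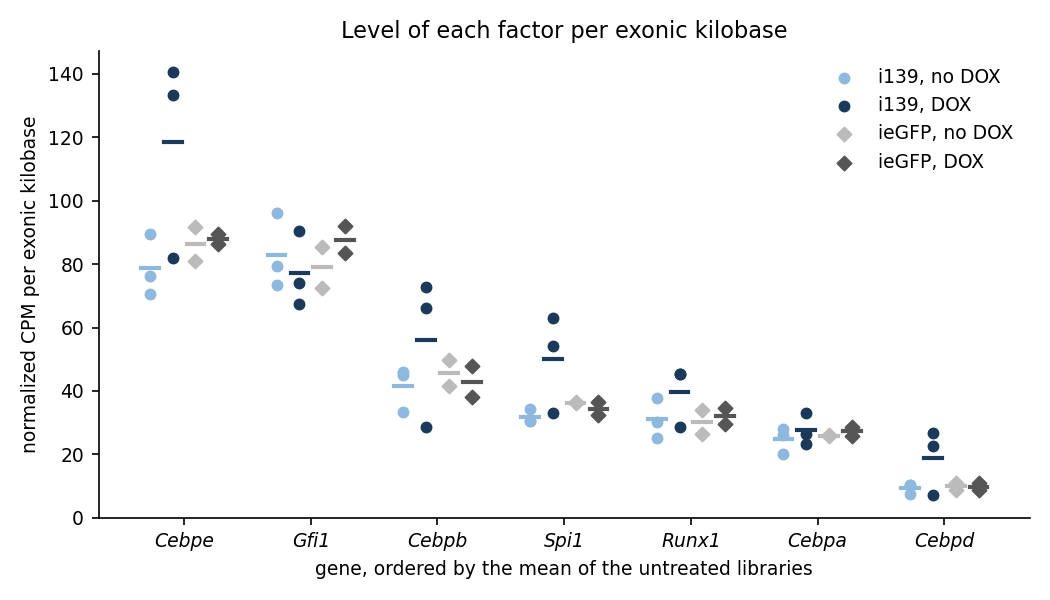
Level of the 7 measured factors in normalized CPM per exonic kilobase (vertical axis, linear), ordered from left to right by the mean of the 5 untreated libraries. Each point is a library and each bar a group mean, with MLL-AF9-i139 as circles (3 libraries a group) and MLL-AF9-ieGFP as diamonds (2 libraries a group). Cebpe and Gfi1 lie highest and Cebpd lowest without DOX. In the DOX-treated MLL-AF9-i139 group 2 points of Cebpe, Cebpb, Spi1, Runx1 and Cebpd lie above their untreated points.

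The main comparison asked which genes differ when miR-139 is switched on. It set the 3 DOX-treated against the 3 untreated MLL-AF9-i139 clones with edgeR's quasi-likelihood test, with p-values adjusted by Benjamini-Hochberg over 19223 genes, and an adjusted p under 0.05 counted as a call. In this fit 12 genes, or 0.0624%, were called, and 0 of the 7 factors were among them, although 3959 genes, among them the factors Spi1, Cebpe and Cebpd, had an unadjusted p under 0.05. The median log2 fold change of the 7 factors was 0.45, against 0.013 for all genes tested. Clone numbers pair the libraries, and a fit with the clone as a block called 2381 genes, or 12.4%, and 2 of the 7 factors, both higher with DOX (7.05% of all genes were called higher). DESeq2 without a block called 1556 genes, or 8.09%, and 1 of the factors, Spi1. DESeq2 with the block, tried after the data had been seen, called 3037 genes, or 15.8%, and 4 of the factors, Spi1, Cebpe, Cebpd and Runx1.

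Spi1 (ENSMUSG00000002111; chr2:91082390-91115756, plus strand) encodes PU.1, an ETS-family factor that opens myeloid enhancers. In untreated clones 1, 2 and 3 it was at 82.4, 92.8 and 82.3 CPM. With DOX it was at 145.7, 169.9 and 89.5 CPM. It was thus higher with DOX in each clone, 1.77- and 1.83-fold in clones 1 and 2 and 1.09-fold in clone 3, but the groups overlapped, since DOX-treated clone 3 lay below untreated clone 2. Over the 3 clones the log2 fold change was 0.67 ± 0.21 (SE; 95% interval 0.18 to 1.16; edgeR adjusted p = 0.150). Blocked by clone, it was 0.62 ± 0.15, which passed the test (edgeR adjusted p = 0.0448), as it did with DESeq2 (adjusted p = 0.0432). In the MLL-AF9-ieGFP clone Spi1 was at 97.3 and 98.5 CPM without DOX, at 48 h and 72 h, and at 87.3 and 98.1 CPM with it, slightly lower both times. The difference between the DOX effects of the 2 constructs was 0.73 ± 0.29 on the log2 scale and did not pass the test (adjusted p = 0.530, fit of 4 groups over 10 libraries with edgeR). In that test 1 of 20269 genes, or 0.00493%, was called, with 1859 at an unadjusted p under 0.05, and 0 of the 7 factors.

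Cebpe (ENSMUSG00000052435; chr14:54710360-54712174, minus strand), the C/EBP gene of late granulocytes, behaved much as Spi1. It was at 94.8, 111.0 and 87.7 CPM in untreated clones 1, 2 and 3. DOX-treated clones stood at 165.6, 174.5 and 101.5 CPM. Again clones 1 and 2 lay above all untreated clones and clone 3 lay within their range. The log2 fold change was 0.60 ± 0.20 (95% interval 0.14 to 1.07; edgeR adjusted p = 0.162), and the blocked value of 0.57 ± 0.12 passed the test (edgeR adjusted p = 0.0347). MLL-AF9-ieGFP cells held 113.7 and 100.6 CPM without and 111.0 and 107.2 CPM with DOX, a log2 fold change of 0.026 ± 0.22 (edgeR adjusted p = 1).

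Cebpd (ENSMUSG00000071637; chr16:15887286-15891031, plus strand) had the largest log2 fold change of the 7 and also the largest spread. It was at 38.9, 38.5 and 28.0 CPM in untreated clones 1, 2 and 3, and at 85.1, 100.3 and 27.4 CPM with DOX. Clones 1 and 2 differed 2.19- and 2.60-fold from their untreated partners, while clone 3 differed 0.978-fold. The log2 fold change of 1.03 ± 0.41 (95% interval 0.085 to 1.97) did not pass the test over the 3 clones (edgeR adjusted p = 0.212) or with the block (0.85 ± 0.25, edgeR adjusted p = 0.0677). In MLL-AF9-ieGFP it was at 41.3 and 33.2 CPM without and at 41.6 and 32.3 CPM with DOX, so the treated and untreated cultures of each time lay within 1 CPM of each other. Cebpd shares part of its body with Spidr on the opposite strand.

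Cebpb (ENSMUSG00000056501; chr2:167688915-167690418, plus strand), the C/EBP gene of emergency granulopoiesis, was at 67.5, 69.4 and 50.1 CPM in untreated clones 1, 2 and 3. With DOX it was at 99.6 and 109.7 CPM in clones 1 and 2 but at 43.1 CPM in clone 3, the lowest value of all libraries. The 3-clone log2 fold change of 0.45 ± 0.31 did not pass the test (edgeR adjusted p = 0.453). Without and with DOX, MLL-AF9-ieGFP cells held 75.1 and 72.1 CPM at 48 h and 62.7 and 57.1 CPM at 72 h.

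Runx1 (ENSMUSG00000022952; chr16:92601466-92826149, minus strand), which binds DNA together with CBFβ, was the factor with the most reads. It was at 452.6, 362.7 and 304.0 CPM in untreated clones 1, 2 and 3, and at 546.0, 544.1 and 345.0 CPM with DOX. Each clone was higher with DOX, but the groups overlapped, as DOX-treated clone 3 lay below untreated clones 1 and 2. The log2 fold change was 0.37 ± 0.21 (edgeR adjusted p = 0.346) and with the block 0.36 ± 0.10 (edgeR adjusted p = 0.0571). MLL-AF9-ieGFP cells stood at 407.0 and 317.4 CPM without and 416.9 and 355.9 CPM with DOX.

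Cebpa and Gfi1 had another pattern. Cebpa (ENSMUSG00000034957; chr7:35119293-35121928, plus strand), whose product starts granulocyte commitment, was at 53.2, 69.0 and 73.8 CPM in untreated clones 1, 2 and 3 and at 69.3, 61.6 and 87.4 CPM with DOX. Clones 1 and 3 were higher and clone 2 lower, with a log2 fold change of 0.17 ± 0.17 (95% interval -0.22 to 0.55; edgeR adjusted p = 0.610). Gfi1 (ENSMUSG00000029275; chr5:107716657-107726036, minus strand) was at 253.1, 306.1 and 234.1 CPM without and at 214.6, 288.2 and 235.8 CPM with DOX. Its log2 fold change was -0.090 ± 0.14 (95% interval -0.42 to 0.24; edgeR adjusted p = 0.765). These intervals reach 0.55 log2 units for Cebpa and -0.42 for Gfi1, so neither gene is shown to be unaltered. In MLL-AF9-ieGFP, Cebpa was at 68.6 and 67.9 CPM without and 75.3 and 68.2 CPM with DOX, and Gfi1 at 271.9 and 231.3 CPM without and 293.3 and 265.9 CPM with DOX.

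**Figure D2:**
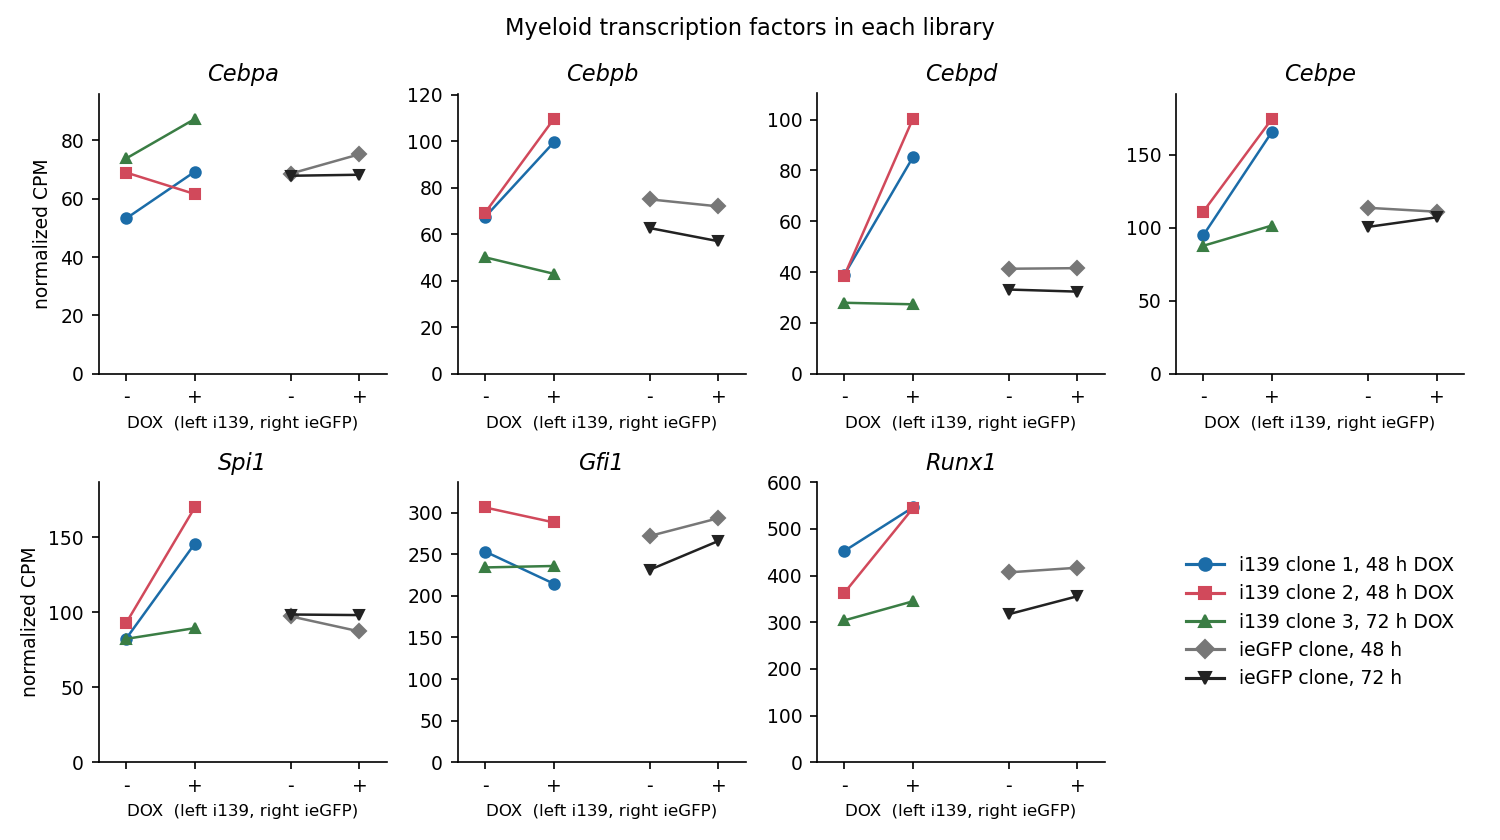
Normalized CPM (vertical axes, linear, from 0) of the 7 measured factors in each of the 10 libraries. Lines join the untreated (-) and DOX-treated (+) library of a clone or culture, with the 3 MLL-AF9-i139 clones on the left of each panel and the 48 h and 72 h cultures of the MLL-AF9-ieGFP clone on the right. Clones 1 and 2 lie well higher with DOX for Cebpb, Cebpd, Cebpe and Spi1, clone 3 lies near its untreated value, and the MLL-AF9-ieGFP lines are nearly level.

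Counted by clone, 3 of the 7 factors (Cebpe, Spi1 and Runx1) were higher with DOX in each of the 3 clones, as were 27.2% of all genes. In 0 of the 7 did all DOX-treated libraries lie above all untreated ones, against 12% of all genes. Cebpb and Cebpd, 2 of the 7, were higher in clones 1 and 2 and lower in clone 3, as were 10.7% of all genes. A difference of at least 0.5 log2 units in both clone 1 and clone 2 was found for 4 of the 7 (Cebpb, Cebpd, Cebpe and Spi1) and for 11.4% of all genes. In each of those 4 the difference in clone 3 was under 0.25 log2 units. So it was in 1013 of the 2193 genes with such a difference in clones 1 and 2 (5.27% of all genes), so the pattern is common among them. All 7 factors were under 0.25 log2 units in clone 3, at most 0.24. The median difference of the 7 factors was 0.56, 0.65 and 0.12 log2 units in clones 1, 2 and 3, and 0.0080 and 0.0075 in the 48 h and 72 h MLL-AF9-ieGFP cultures, while the median over all genes tested lay between -0.018 and 0.0092 in the 5 pairs.

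**Figure D3:**
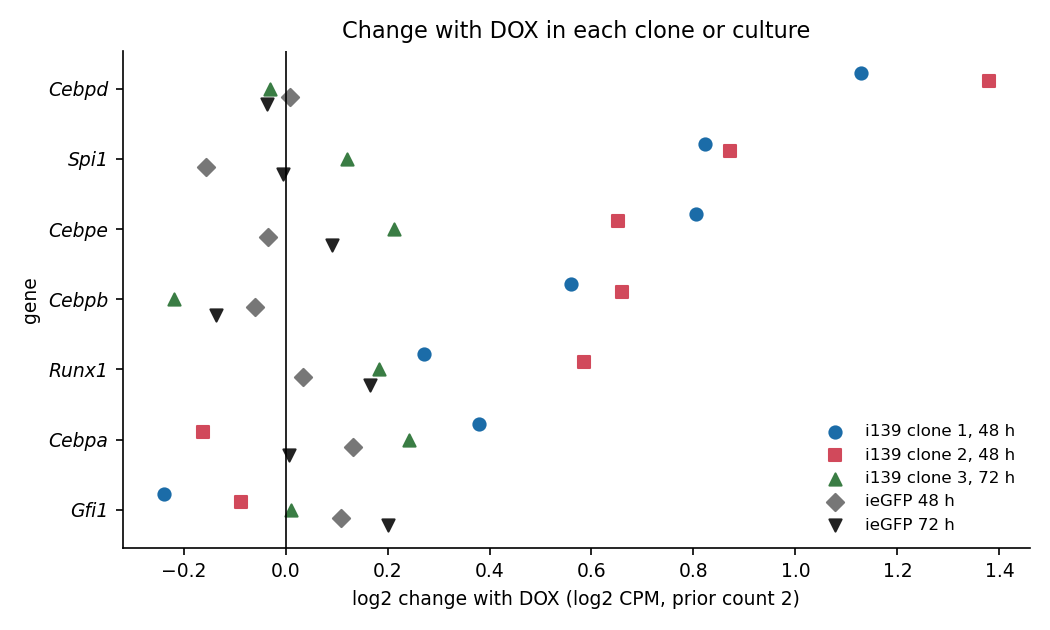
Log2 change with DOX (horizontal axis, log2 CPM with a prior count of 2) of the 7 measured factors (vertical axis), 1 point per pair of libraries. For Cebpd, Spi1, Cebpe and Cebpb the points of clones 1 and 2 lie at 0.56 or above, apart from clone 3 and the 2 MLL-AF9-ieGFP cultures, which lie between -0.22 and 0.21.

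The result thus rested on clone 3. Without it, 3981 genes, or 21.7%, were called in MLL-AF9-i139 (11.6% higher), and 5 of the 7 factors rose: Cebpd by 1.28 ± 0.10 log2 units (adjusted p = 0.000358), Spi1 by 0.87 ± 0.11 (0.00183), Cebpe by 0.74 ± 0.11 (0.00292), Cebpb by 0.63 ± 0.09 (0.00311) and Runx1 by 0.44 ± 0.12 (0.0340), all adjusted p-values of edgeR. Without clone 1 or without clone 2 none of the 7 was called, with 1 and 0 calls among all genes and 1283 and 1050 genes at an unadjusted p under 0.05. Against MLL-AF9-ieGFP, the DOX effect without clone 3 differed for 4 of the 7 factors, Cebpd, Spi1, Cebpe and Cebpb, where 10.2% of all genes were called. Restricted to the 48 h libraries, which leaves 1 MLL-AF9-ieGFP library per group whose spread is taken from the others, it differed for Cebpd (1.25 ± 0.19 log2 units, edgeR adjusted p = 0.0204) and Spi1 (1.00 ± 0.19, edgeR adjusted p = 0.0429), where 2.69% of all genes were called. The 48 h set holds the untreated partners of clones 1 and 2, for which the labels give no time.

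Whether clone 3 itself differed was tested, after the data had been seen, by adding a term for DOX in clone 3 to the fit of the 6 MLL-AF9-i139 libraries with the clone as a block. The spread of its single pair of libraries is taken from clones 1 and 2 and, as edgeR shares spread between genes, from all genes tested. The test therefore sets that pair against the other 2 and does not tell clone from time. Its p-values do not measure how the DOX effect varies among clones treated alike. The DOX effect was lower in clone 3 than in clones 1 and 2 for 4 of the 7 factors, where 15% of all genes were called in either direction. The difference was -1.30 ± 0.12 log2 units for Cebpd (edgeR adjusted p = 1.43e-11), -0.85 ± 0.12 for Cebpb (2.11e-07), -0.75 ± 0.11 for Spi1 (1.22e-06) and -0.54 ± 0.11 for Cebpe (0.000332). Runx1 (-0.26 ± 0.11, edgeR adjusted p = 0.100), Gfi1 (0.15 ± 0.10, 0.397) and Cebpa (0.11 ± 0.13, 0.679) did not pass. The same 4 factors were called in a fit of all 10 libraries (13.9% of all genes) and with DESeq2, and 0 of the 7 without the block, where Cebpd had an adjusted p of 0.0506 and 4 factors an unadjusted p under 0.05. With clone 1 left out of the fit of all 10 libraries, a single pair of libraries remains on each side. The difference was then -0.41 log2 units for Runx1 and 0.40 for Cebpa.

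In MLL-AF9-ieGFP, edgeR called 0 of 20269 genes with DOX, with 259 at an unadjusted p under 0.05, and DESeq2 called 1. The log2 fold changes of the 7 factors lay between -0.094 (Cebpb) and 0.15 (Gfi1). In this clone 6 of the 7 factors, all but Spi1, were lower at 72 h than at 48 h both without and with DOX, in single cultures.

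Across the 10 libraries, Cebpb, Cebpd, Cebpe, Spi1 and Runx1 followed each other, with Pearson correlations of log2 CPM from 0.739 (Spi1 and Runx1) to 0.960 (Cebpe and Spi1). Gfi1 had correlations between -0.17 and 0.24 with the other factors, and Cebpa between -0.52 and -0.17. These libraries share 4 clones and a treatment, so the values are a description. Among 10661 genes, and leaving Gfi1 aside, those whose pattern was most like that of Spi1 were Sertad1 (r = 0.993) and Stat6 (0.992), like that of Cebpe 9530068E07Rik (0.996) and Atp6v0b (0.993), and like that of Cebpd Narf and Pced1b (0.992 each). The nearest to Cebpb were Vps33a (0.975) and Ap5z1 (0.971), to Runx1 Mrtfa (0.981) and Wdr7 (0.977), and to Cebpa Smim13 (0.889) and Bcl9l (0.855).

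RefSeq promoter windows (250 bases before to 50 after a start on GRCm38) were at hand for Cebpa, Cebpb, Gfi1, Irf8, Klf4 and Runx1, 9 windows in all. They were searched on both strands for TTGCNNAA (C/EBP, in 10.8% of 32851 windows), GAGGAAGT (PU.1, 3.202%) and TGTGGTT (RUNX, 5.269%), to see whether the factors' own start regions carry each other's motifs. The upstream window of Gfi1 held 1 C/EBP match (chr5:107725931-107725959, minus strand), and the distal window of Runx1 held 2 RUNX matches next to each other, read on the opposite strand (chr16:92826031-92826058, minus strand). They are shown with the matches in capitals.
Gfi1 upstream window: cgaaggtaggtTTGCTGAActgctgtgcc
Runx1 distal window: acctcataaacAACCACAgAACCACAag
The other 7 windows held none of these letters.

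Genes around the 7 factors were read from 5 lists. Over the 3 clones without a block, edgeR called 0 genes of any of the 5 lists, where 0.0624% of all genes were called. At an unadjusted p under 0.05 there were 7 of 13 granulocyte targets, 5 of 15 monocyte targets and 9 of 18 relatives and partners. So were 1 of 3 other C/EBP genes and 3 of 16 other regulators, against 3959 of 19223 genes tested. DESeq2 called 7, 3, 2, 1 and 1 genes of these lists, in this order, and 8.09% of all genes. The counts that follow are from edgeR with the clone as a block, where 7.05% of all genes were called higher and 5.33% lower. Without clone 3, where 11.6% of all genes were called higher and 10.1% lower, edgeR called 7 granulocyte targets higher and 1 lower, 6 monocyte targets higher and 2 lower, 8 relatives and partners higher and 0 lower, 0 other C/EBP genes higher and 1 lower, and 4 other regulators higher and 0 lower.

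Among granulocyte genes known as C/EBP targets, 7 of 13 tested were higher with DOX and 0 lower, with a median log2 fold change of 0.60 against 0.0099 for all genes. They were Csf3r, Mpo, Ngp, Lcn2, Cxcr2, Lyz2 and Cd177. Csf3r, the receptor for G-CSF, was at 23.8, 29.3 and 36.7 CPM in untreated clones 1, 2 and 3 and at 64.7, 77.5 and 70.6 CPM with DOX (1.28 ± 0.12 log2 units, edgeR adjusted p = 0.00955). Mpo, the myeloperoxidase of primary granules, was at 414.2, 615.0 and 579.8 CPM without and 1306, 1244 and 1669 CPM with DOX (1.41 ± 0.13, edgeR adjusted p = 0.00955). Ngp, a protein of secondary granules, went from 79.1, 56.2 and 42.4 CPM to 158.5, 185.7 and 102.5 CPM (1.35 ± 0.14, edgeR adjusted p = 0.0109). Ltf and Camp, also on this list, were not called (edgeR with the block, adjusted p = 0.196 and 0.197). Both were lower with DOX in clone 1 and higher in clones 2 and 3. Csf3r, Mpo and Ngp had DOX-treated groups wholly above the untreated ones, clone 3 included. So had 12% of all genes, but none of the 7 factors. The 3 genes were named by their small adjusted p in this comparison, which favors genes alike between clones. Whether the list differs from the factors was therefore not tested. Csf3r, Lcn2, Lyz2, Cxcr2 and Cd177 changed less in clone 3 than in clones 1 and 2. For Mpo and Ngp, clone 3 lay between the others. Log2 changes in clones 1, 2 and 3 were 2.48, 2.31 and 0.55 for Lyz2 and 0.58, 0.93 and 0.24 for Cd177. The primary granule protease genes Prtn3 and Elane differed in sign between clones. Prtn3 was at 362.2, 445.2 and 519.2 CPM in untreated and 256.4, 247.8 and 536.0 CPM in DOX-treated clones 1, 2 and 3 (edgeR with the block, adjusted p = 0.115), and without clone 3 it was called lower (-0.66 log2 units, edgeR adjusted p = 0.00732). Elane was at 1090, 1315 and 2004 CPM without and 912.7, 1013 and 2669 CPM with DOX (edgeR with the block, adjusted p = 0.816). In MLL-AF9-ieGFP, Mpo was also higher with DOX, at 705.2 and 927.4 CPM against 523.6 and 642.1 CPM, without passing the test (0.49 ± 0.21, edgeR adjusted p = 1). So was Ngp, at 79.2 and 122.8 CPM against 64.5 and 103.6 CPM, and it did not pass either.

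Of 15 monocyte genes known as PU.1, IRF8 or KLF4 targets, all tested, 1 was higher and 1 lower. Csf1r, the M-CSF receptor and a PU.1 target, was at 1.54, 1.25 and 0.837 CPM in untreated clones 1, 2 and 3 and at 5.14, 2.57 and 1.499 CPM with DOX (1.26 ± 0.23 log2 units, edgeR adjusted p = 0.0278). Ccr2, the chemokine receptor of inflammatory monocytes, fell from 1.37, 2.01 and 2.71 CPM to 0.647, 0.585 and 0.838 CPM (-1.504 ± 0.23, edgeR adjusted p = 0.0220). Both are low, with 737 and 501 reads over 10 libraries.

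Relatives and partners of the 9 factors numbered 19, of which 18 were tested and 7 were higher with DOX and 0 lower: Irf1, Irf2, Irf4, Fli1, Klf3, Klf13 and Gfi1b. Fli1, an ETS-family relative of Spi1, was at 727.5, 596.9 and 572.3 CPM in untreated clones 1, 2 and 3 and at 908.7, 933.7 and 723.8 CPM with DOX (0.45 ± 0.09 log2 units, edgeR adjusted p = 0.0314). Irf1, an interferon regulatory factor like IRF8, went from 8.71, 10.8 and 8.04 CPM to 18.4, 18.2 and 10.2 CPM (0.74 ± 0.16, edgeR adjusted p = 0.0335). Irf4, the closest relative of Irf8, had 4, 1 and 2 reads without and 28, 15 and 12 reads with DOX (edgeR adjusted p = 0.0238), and 2 or 3 reads in each MLL-AF9-ieGFP library. Gfi1b, with 34 reads over 10 libraries, rested on clones 1 and 2, as it was at 0 in clone 3 under both conditions. Runx2 and Runx3, the other RUNX genes, and Cbfb, the partner of RUNX1, were not called.

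Among the other C/EBP genes, 0 of 3 were higher and 1, Cebpz, was lower, from 165.5, 163.4 and 175.0 CPM to 128.5, 135.6 and 131.1 CPM (-0.34 ± 0.08 log2 units, edgeR adjusted p = 0.0396). Cebpz encodes a CCAAT-binding protein named with the family. Cebpg and Ddit3 were not called. Of 22 other regulators of granulocyte or monocyte fate, 16 were tested, 1 was higher and 0 lower. That gene, Id2, which encodes an inhibitor of helix-loop-helix factors, went from 2.81, 2.30 and 2.26 CPM to 20.0, 11.3 and 5.31 CPM in clones 1, 2 and 3 (2.17 ± 0.29, edgeR adjusted p = 0.0198), while MLL-AF9-ieGFP held 2.24 and 3.16 CPM without and 2.45 and 2.83 CPM with DOX.

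**Figure D4:**
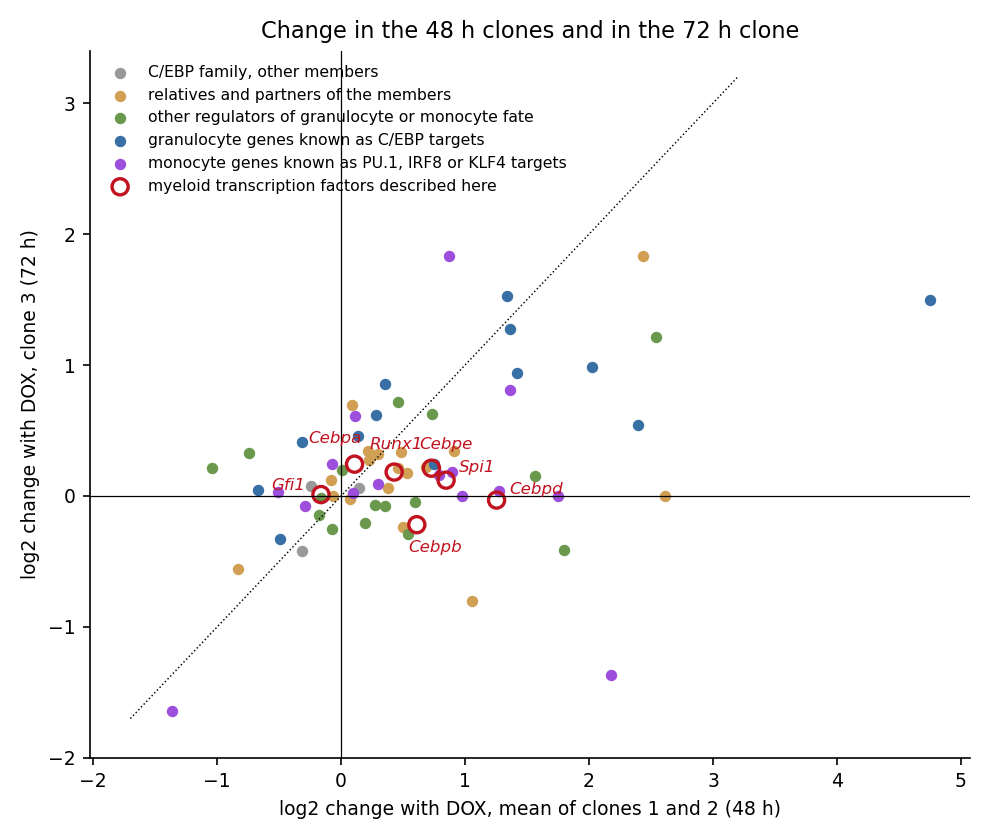
Log2 change with DOX in clone 3 (72 h, vertical axis) against the mean log2 change in clones 1 and 2 (48 h, horizontal axis), 1 point per tested gene of the 5 lists, with the 7 measured factors as open red circles. The dotted line marks equal change. Cebpd, Spi1, Cebpe and Cebpb lie well below this line, at a clone 3 change between -0.22 and 0.21, and 12 of the 13 granulocyte targets lie above 0 in clone 3. In the MLL-AF9-ieGFP cultures, which are not drawn, 12 of these 13 were above 0 at 72 h and 9 at 48 h. Their median change was 0.62 log2 units in clone 3, and 0.21 and 0.12 in the 72 h and 48 h cultures.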

How the data were processed

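RNA was sequenced after ribosomal RNA depletion. Per the methods and the submitters' processing notes, the authors mapped reads to GRCm38 with STAR (2.5.3e), counted them per gene with featureCounts (1.6.0) using GENCODE gene models, and the raw counts were deposited. Whether strand was used in counting is not given in the sources used here, so reads of overlapping genes on opposite strands may not be separable. The 2 deposited tables differ in 0 values over these libraries, and 14 further per-sample columns were not used. Positions, overlaps and 3′ UTRs came from GENCODE M21, a release other than the authors' on the same build.

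Groups and clone numbers came from the labels. The main test was edgeR 4.0.16 (R 4.3.3), quasi-likelihood, TMM, genes with at least 10 counts in total, no block, with the 6 MLL-AF9-i139 libraries, or with all 10 in 4 groups for MLL-AF9-ieGFP and the difference. Alternatives were DESeq2 1.42.0, RLE size factors, other count filters, the clone as a block, all 10 libraries, the 48 h libraries alone and each library pair left out. The test of clone 3 against clones 1 and 2, and a DESeq2 fit blocked by clone, were added after seeing the data. Clone numbers pair the libraries by the labels, and deviations from the group means correlated at 0.269 to 0.393 within a clone and at -0.297 to -0.0382 between clones. Deviations from a group mean sum to 0 over its clones. The values between clones are therefore pushed below 0 where those within a clone are above it. Without the block, p-values in MLL-AF9-i139 measure the spread between clones, and with it the spread of the DOX difference between clones. Those in MLL-AF9-ieGFP come from the fit of all 10 libraries. Their spread is therefore shared with the MLL-AF9-i139 clones, clone 3 included, and is not that of the MLL-AF9-ieGFP cultures alone. For single clones, log2 CPM (prior count 2) of the untreated was subtracted from that of the treated library. The scripts were tested on simulated data.

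The 9 factors and all lists were chosen with earlier results of these data known. Named beyond them, by rule, are at most 3 genes per pathway list with the smallest adjusted p in the fit without or with the block, and the 2 genes per factor with the highest correlation among genes with an average log2 CPM of at least 1 (those of Gfi1 are not reported here). The other called genes, Prtn3, Elane, Ltf, Camp, Mir139, the overlapping genes and single markers were named after their values were seen.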

Additional observations from a re-analysis of the deposited data

Results flagged for a closer look

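In 3 factors the DOX difference had opposite signs in the 48 h clones (1 and 2) and the 72 h clone (3) of MLL-AF9-i139. The clone 3 difference minus the mean of clones 1 and 2 was -1.29 log2 units for Cebpd, -0.83 for Cebpb and 0.17 for Gfi1. In a fit with the clone as a block, added after the data had been seen, this difference passed the test for Cebpd and Cebpb (edgeR adjusted p = 1.43e-11 and 2.11e-07) and not for Gfi1 (0.397). It also passed for Spi1 and Cebpe (edgeR adjusted p = 1.22e-06 and 0.000332), whose clone 3 difference minus the mean of clones 1 and 2 was -0.73 and -0.52 log2 units, without a change of sign. Without the block none of the 5 passed. There is 1 pair at 72 h, and clone and time cannot be told apart.

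Spi1 was higher with DOX in each of the 3 MLL-AF9-i139 clones and lower in both MLL-AF9-ieGFP cultures. The difference between the constructs, 0.73 log2 units, had an edgeR adjusted p of 0.530, and 0.00246 to 0.949 over the 11 alternatives.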

How the results depend on the processing

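Of 231 log2 fold changes of single factors under the alternatives, 201 kept their direction and side of the threshold, 20 passed it under an alternative, 4 no longer did and 6 reversed, all of small values. With 1 pair left out in turn, Cebpa ranged from -0.0071 to 0.14, Cebpd from -0.051 to 0.013 and Cebpe from -0.030 to 0.077 in MLL-AF9-ieGFP, and Cebpa from -0.0063 to 0.23 in the difference between constructs. With the 48 h libraries alone, that difference was -0.037 for Cebpa. In clone 3 against clones 1 and 2, Cebpa ranged from -0.14 without clone 2 to 0.40 without clone 1. Where 1 MLL-AF9-ieGFP library remained per group, it was assumed to vary like the others.

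The number of genes called in MLL-AF9-i139 was 12, and 1556 with DESeq2, 2381 with the replicate block, 3037 with DESeq2 and the block, 1234 in the fit of all 10 libraries, 562 with at least 1 count in total and 6 with at least 10 counts in at least 3 libraries. It was 0 to 3981 with a clone left out (0 without clone 2, 1 without clone 1, 3981 without clone 3). In MLL-AF9-ieGFP it was 0, and 1 with DESeq2 or with at least 1 count in total. The difference between constructs had 1 call, 517 with the 48 h libraries alone, 82 with DESeq2, 71 with at least 1 count in total, 0 with at least 10 counts in at least 3 libraries, 38 with the replicate block, and 0 to 2011 with a pair left out (2011 without clone 3). Clone 3 against clones 1 and 2 had 2887 calls, 899 with DESeq2 and 52 with no replicate block. DESeq2 with the block also called Cebpd (adjusted p = 0.00290) and Runx1 (0.0282). In edgeR the block changed the calls of Spi1 and Cebpe and of no other factor.

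Per kilobase of body outside other genes, untreated MLL-AF9-i139 levels were 104.6 for Cebpb, 53.9 for Cebpe, 31.1 for Gfi1, 18.1 for Cebpd, 2.57 for Spi1 and 1.72 for Runx1 (CPM). Cebpa, at a mean of 65.4 CPM over 2323 such bases, lay between Gfi1 and Cebpd in this order. Depth does not limit the 7 factors, each with at least 1077 reads in every library.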
